A study of Mus musculus with 13 samples.

Results

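The genes described here encode the enzymes that make, recycle and use glutathione, together with other antioxidant enzymes, in Sertoli cells of adult male mice. They were taken by name from the table of estimated counts. The rule took every glutathione S-transferase (GST), microsomal GST, glutathione peroxidase, peroxiredoxin and thioredoxin gene without *Txnip* and the *Txnl4* genes, and it added 13 genes by name. These are the superoxide dismutases, catalase, the glutathione synthesis and recycling enzymes, and the NRF2 pathway genes *Nfe2l2*, *Keap1*, *Nqo1*, *Hmox1* and *Srxn1*. This gave 68 of 27111 named rows, of which 59 passed the filter on low counts among 14421 genes tested. The other 9 were not tested and had at most 53 counts in any sample. They are *Gpx2*, *Gpx5*, *Gpx6*, *Gpx8*, *Gstm3*, *Gstp2*, *Gstp3*, *Gstt1* and *Nqo1*.

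All mice were wild-type males of the Bl6 background (C57Bl/6J), 3 to 5 months old. The 6 control males had been left undisturbed. The 7 MSUS males had been taken from their mothers daily for 3 h over postnatal days 1 to 14, at times that could not be foreseen. Meanwhile the dams were put through a swim in cold water or restraint. Sertoli cells, the somatic cells of the seminiferous tubule, were sorted from digested testis as large diploid cells with a high MitoTracker signal, a gate that itself selects on mitochondria, and each mouse gave 1 library from 5 ng of RNA. The comparison asks whether stress in early life left a difference in the RNA of these cells in adulthood.

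Glutathione is the main small thiol of the cell. It is made by glutamate-cysteine ligase and glutathione synthetase, kept reduced by glutathione reductase, and used by glutathione peroxidases to reduce peroxides and by GSTs to conjugate electrophiles. Peroxiredoxins reduce peroxides with electrons from thioredoxin, and NRF2, the product of *Nfe2l2*, drives many of these genes through the antioxidant response element when its inhibitor KEAP1 is inactivated. Sertoli cells feed and shelter the germ cells and carry abundant GSTs.

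To show how the element that binds NRF2 lies at these genes, RefSeq promoters of GRCm38.p6 were searched for its core. The core is TGACNNNGC, where N is any base. Each promoter ran from 250 bases before to 50 bases after a start, and both strands were searched. A gene can have several starts, such as 3 for *Txnrd1*, and a core at any of them counted. Of the 59 members in that table, 13 (22%) held the core, against 14% of 27025 genes with a promoter there. *Gclm*, the member with a higher level in MSUS males, held 1. *Gstk1*, *Gsto1* and *Prdx3*, with lower levels, held none in this window, as was so for most members. Among uncalled members with the core, log2 fold changes had both signs, such as -0.09 for *Gstm7* and 0.11 for *Txnrd1*. *Txnl1* was not in the table. The stretches below show 6 of these 13 members, chosen as the called *Gclm* and 5 genes of different families and roles, each read 5′ to 3′ on the strand of its gene, with the core in capitals. Where the capitals start with GC, the core lies on the opposite strand.
Gclm: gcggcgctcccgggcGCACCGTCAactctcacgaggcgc
Txnrd1: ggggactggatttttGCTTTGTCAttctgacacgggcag
Prdx1: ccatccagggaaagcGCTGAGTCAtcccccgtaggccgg
Sod1: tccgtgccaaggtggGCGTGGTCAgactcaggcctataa
Gstm7: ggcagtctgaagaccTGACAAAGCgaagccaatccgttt
Nfe2l2: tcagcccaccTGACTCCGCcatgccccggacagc
In GRCm38 these stretches lie at chr3:122245408-122245446 on the plus strand for *Gclm*, chr10:82859099-82859137 on the plus strand for *Txnrd1*, and chr4:116685451-116685489 on the plus strand for *Prdx1*. They lie at chr16:90220691-90220729 on the plus strand for *Sod1*, chr3:107931720-107931758 on the minus strand for *Gstm7*, and chr2:75704880-75704913 on the minus strand for *Nfe2l2*. The *Txnrd1* stretch lies inside the gene, which runs from chr10:82833951 to 82897712, at a start after its first. A match of these letters is a description of the sequence and says nothing about binding in these cells.

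Estimated counts per library summed to between 12701664 and 18649819, of which 9776853 to 14383367 were on named genes. The mean log2 CPM (CPM being a count scaled to library size) of 10 Sertoli cell markers was 8.82 ± 0.07 in control (SD, n = 6) and 8.78 ± 0.08 in MSUS males (SD, n = 7). Markers of elongated spermatids, which are haploid and outside the gate, followed with 7.58 ± 0.22 and 7.73 ± 0.44. Those of spermatocytes had 5.72 ± 0.21 and 5.52 ± 0.42, and the 5 macrophage markers lay at -1.15 ± 0.28 and -1.13 ± 0.51. Peritubular myoid markers had 1.09 ± 0.99 and 1.70 ± 1.27, with positive log2 fold changes for all 4 tested. Endothelial markers had 2.67 ± 0.26 and 2.89 ± 0.18, with 1 of 5 higher in MSUS males at an unadjusted p under 0.05 in limma. Leydig cell markers had 2.63 ± 0.67 and 2.82 ± 0.36. In other lists, log2 fold changes were positive for all 6 elongated spermatid, 4 of 5 endothelial and 3 of 5 Leydig cell markers. They were negative for all 6 spermatocyte and 8 of 10 Sertoli cell markers. *Malat1*, a nuclear long non-coding RNA, had 9.93 ± 0.56 log2 CPM in control and 10.63 ± 0.43 in MSUS males, and mitochondrially encoded genes held 1.98% ± 0.42 and 2.48% ± 0.57 of the named counts. In such bulk samples, fewer cells of a type and less RNA per cell cannot be told apart.

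Between MSUS and control males, 4 members had lower and 1 had higher levels at an unadjusted p under 0.05 in limma voom. The lower ones were the GSTs *Gstk1* and *Gsto1*, the thioredoxin-like gene *Txnl1* and the mitochondrial peroxiredoxin *Prdx3*, and the higher one was *Gclm*, the modifier subunit of glutamate-cysteine ligase. Over all genes tested, 5.42% had an unadjusted p under 0.05, with 2.40% lower and 3.02% higher, against 6.78% of the members lower and 1.69% higher. With only 4 and 1 calls, the share of lower members lay above that of all genes and the share of higher members below it. Neither difference was tested. After adjustment over all genes tested, limma called 0 members and 0% of all genes, and so did edgeR and DESeq2. The smallest adjusted p in limma was 0.878. In edgeR and in DESeq2, as in limma, 4 members were lower and 1 was higher at an unadjusted p under 0.05. Of all genes tested, 2.18% were lower and 3.31% higher in edgeR, and 2.07% and 3.72% in DESeq2. The median log2 fold change was -0.04 over the 59 members and -0.0018 over all genes, and 38 members had a negative and 21 a positive value. Negative values made up 64.4% of the members and 50.5% of all genes. The sign of the median depended on the model, as it was 0.011 with the share of mitochondrially encoded counts and 0.048 with the *Malat1* level as a covariate. The medians of all genes in these fits were 0.00055 and -0.0014.

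**Figure D1:**
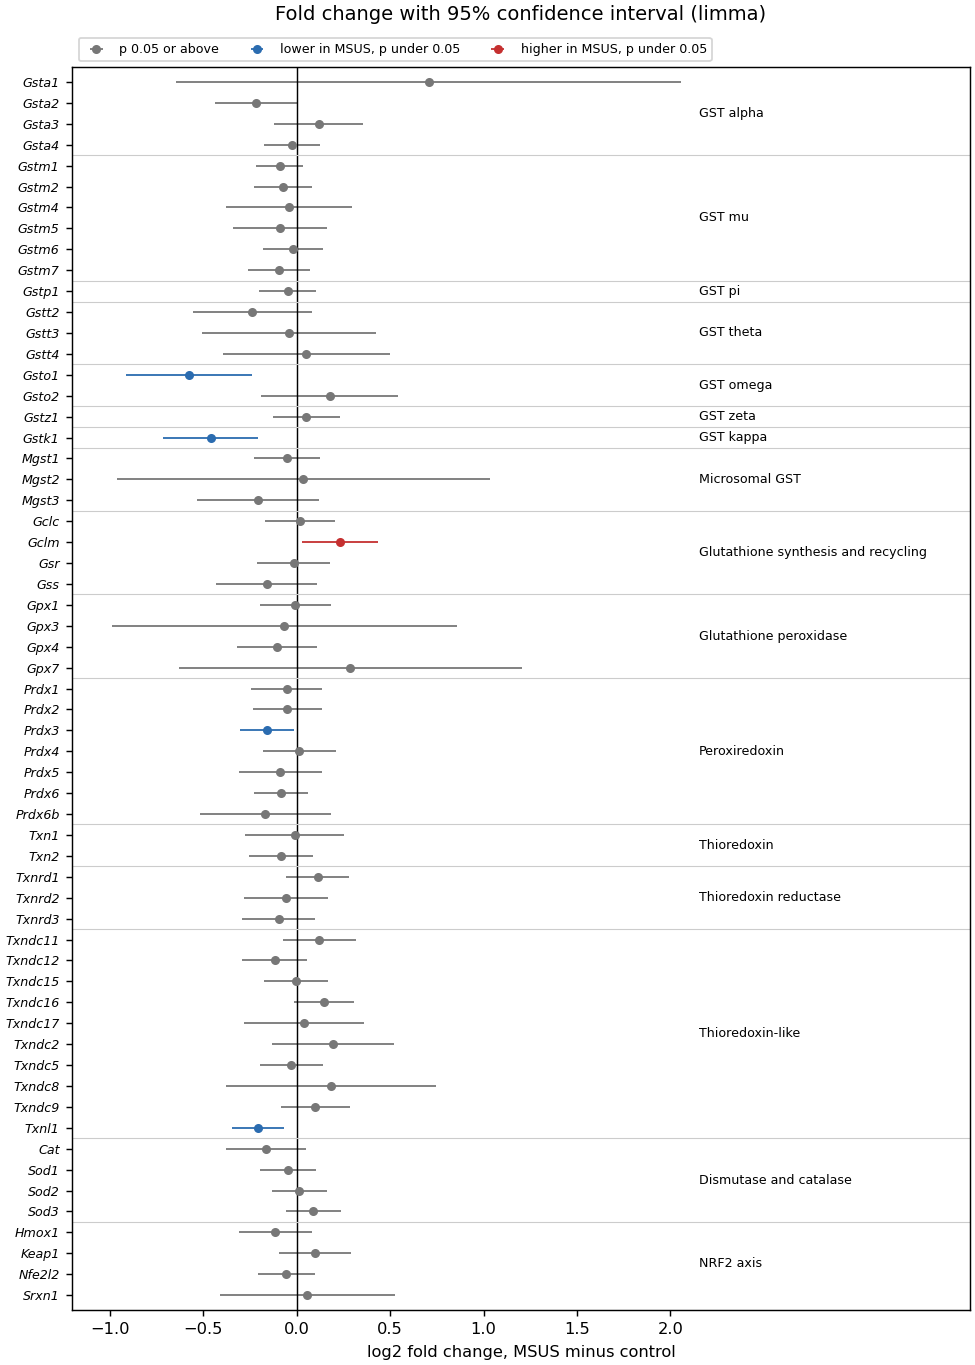
Log2 fold change of MSUS against control males for the tested members, grouped by enzyme family, with 95% confidence intervals from limma voom. Most intervals include 0, and the called members are *Gstk1*, *Gsto1*, *Txnl1* and *Prdx3* below 0 and *Gclm* above 0.

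*Gstk1* encodes the kappa GST, an enzyme of mitochondria and peroxisomes, and lies at chr6:42245935-42250447 on the plus strand of GRCm38. Its levels in the control males were 3.46, 3.53, 3.54, 3.54, 3.59 and 3.85 log2 CPM. In the MSUS males they were 2.93, 2.93, 2.94, 3.21, 3.21, 3.29 and 3.39. Every MSUS male lay below every control male, and no other member separated the groups. Over all genes tested, 0.0555% had MSUS males entirely below control males. The log2 fold change was -0.46 (SE 0.12, 95% confidence interval -0.71 to -0.21, limma adjusted p = 0.878), and an exact permutation test of the mean levels, two-sided over all 1716 assignments of the males, gave p = 0.00117, where 0.000583 is the smallest value possible. The gene had 118 to 159 counts per control library and 82 to 106 per MSUS library, and counting error alone gave an SD of about 0.14 on the log2 scale. The control male with 3.85 stood apart, and without it the log2 fold change was -0.41. Over all 13 males *Gstk1* and *Malat1* correlated with r = -0.71 (permutation p = 0.00577, adjusted p = 0.0757) and rho = -0.78 (permutation p = 0.00236, adjusted p = 0.0696), and r was -0.67 without control 24 and MSUS 5. Within the groups r was -0.87 in MSUS and 0.01 in control males. With the *Malat1* level as a covariate the log2 fold change was -0.36, and with the share of mitochondrially encoded counts it was -0.35.

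*Gsto1*, at chr19:47854970-47864790, encodes an omega GST, which reduces dehydroascorbate and other substrates with glutathione. Levels ranged from 2.86 to 3.50 log2 CPM in control males with a median of 3.13, and from 2.29 to 3.06 in MSUS males with a median of 2.48. The groups overlapped, with 5 of 7 MSUS males below all control males and 7 of 7 below the control mean. The log2 fold change of -0.58 (SE 0.16, 95% confidence interval -0.91 to -0.24) was the largest fall among the members (limma adjusted p = 0.878, exact permutation test p = 0.00524). The gene had 73 to 163 counts in control and 51 to 91 in MSUS libraries. Its neighbor *Gsto2*, at chr19:47865534-47886324, encodes the other omega GST and was not called, with a log2 fold change of 0.18 (SE 0.17). With *Malat1*, *Gsto1* had r = -0.11 over all males (permutation p = 0.711, adjusted p = 0.884), 0.81 in control and 0.62 in MSUS males, and with *Malat1* as a covariate its log2 fold change was -0.82.

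*Txnl1* encodes a thioredoxin-like protein that associates with the proteasome. It had 5.56 to 5.77 log2 CPM in control males (median 5.70) and 5.30 to 5.60 in MSUS males (median 5.49). The difference was small and the spread within groups smaller, so that 6 of 7 MSUS males lay below all control males. The log2 fold change was -0.20 (SE 0.07, 95% confidence interval -0.34 to -0.07, limma adjusted p = 0.878, exact permutation test p = 0.00233).

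*Prdx3*, at chr19:60864051-60874556 on the minus strand, encodes the peroxiredoxin of the mitochondrial matrix. Control males had 6.20 to 6.49 log2 CPM with a median of 6.32, and MSUS males had 6.06 to 6.30 with a median of 6.20. Of the MSUS males, 4 of 7 lay below all control males. The log2 fold change was -0.16 (SE 0.07, 95% confidence interval -0.30 to -0.01, limma adjusted p = 0.878, exact permutation test p = 0.0315). This call was the least stable of those for lower genes. It passed an unadjusted p of 0.05 in 16 of 24 alternatives and was lost without control 9, 12 or 24, without MSUS 11, 13 or 26, with the share of mitochondrially encoded counts as a covariate (-0.14) and with *Malat1* as a covariate (-0.08).

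*Gclm*, at chr3:122245557-122270732 on the plus strand, was the only called member with a higher level in MSUS males. The modifier subunit raises the activity of the catalytic subunit that *Gclc* encodes, in the rate-limiting step of glutathione synthesis. Levels were 4.93 to 5.35 log2 CPM in control males, with a median of 5.11, and 5.15 to 5.64 in MSUS males, with a median of 5.30. All 7 MSUS males lay above the control mean, and 3 lay above all control males. The log2 fold change was 0.23 (SE 0.10, 95% confidence interval 0.03 to 0.43, limma adjusted p = 0.878, exact permutation test p = 0.0396). The call was lost without control 10, 12 or 14, without MSUS 1 or 6, and with the share of mitochondrially encoded counts as a covariate, where the value was again 0.23. With *Malat1* as a covariate it was 0.31.

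**Figure D2:**
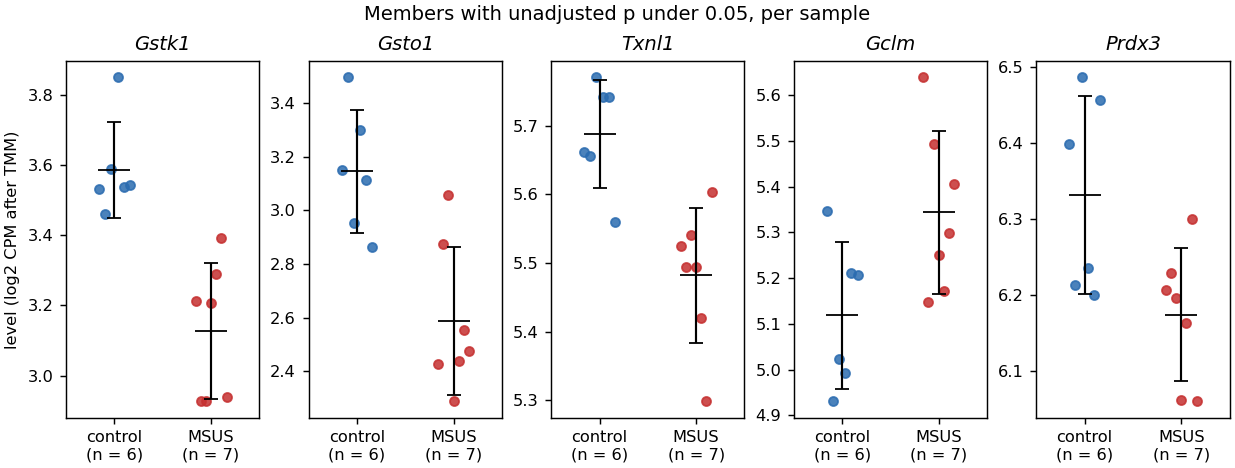
Levels in log2 CPM of the 5 called members in each of the 6 control and 7 MSUS males, with the mean and SD of each group. The groups separate for *Gstk1* and overlap for *Gsto1*, *Txnl1*, *Prdx3* and *Gclm*.

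The remaining glutathione synthesis and recycling genes were not called. *Gclc* had a log2 fold change of 0.02 (95% confidence interval -0.17 to 0.20), so that a difference as large as the estimate of 0.23 for *Gclm* lies outside its interval, though the difference between both subunits was not tested. *Gss*, which encodes glutathione synthetase, had -0.16 (95% confidence interval -0.43 to 0.11), and *Gsr*, which encodes glutathione reductase, had -0.01 (95% confidence interval -0.21 to 0.18).

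Of *Nfe2l2*, *Keap1*, *Hmox1* and *Srxn1*, the tested genes added for the NRF2 pathway, none was called. *Nfe2l2*, which encodes NRF2, had 6.15 ± 0.12 log2 CPM in control (SD, n = 6) and 6.09 ± 0.13 in MSUS males (SD, n = 7), a log2 fold change of -0.05 (95% confidence interval -0.21 to 0.10). *Keap1* had 4.71 ± 0.14 and 4.81 ± 0.16, a log2 fold change of 0.10 (95% confidence interval -0.10 to 0.29). The heme oxygenase gene *Hmox1*, with a log2 fold change of -0.11 (95% confidence interval -0.31 to 0.08), and the sulfiredoxin gene *Srxn1*, with 0.06 (95% confidence interval -0.41 to 0.53), were likewise within the spread between mice. The interval of *Srxn1* was wide, with 19 to 75 counts per library. *Nqo1*, a standard reporter of NRF2 activity, had 0 to 9 counts per library and was not detectable well enough for a test.

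By level, the mu and alpha GSTs led the members. Divided by transcript length, control levels were 669 ± 54.4 CPM per kb for *Gstm2* (SD, n = 6), 573 ± 37.5 for *Gsta4*, 475 ± 49.5 for *Gstm7*, 450 ± 18.9 for *Gstm1* and 324 ± 20.8 for *Gstm6*. *Gstm7* and *Gstm1* lay within an SD of each other, as did the next pair, *Gpx4* with 265 ± 23.4 and *Sod1* with 252 ± 22.2 CPM per kb. *Prdx2* with 198 ± 18.2, *Gstm5* with 181 ± 9.80 and *Prdx6* with 163 ± 12.8 completed the 10 highest, and 15 members in all exceeded 100 CPM per kb. The mu GST genes lie in 1 cluster that runs from *Gstm5* at chr3:107895821 to the end of *Gstm4* at 108044894, yet their levels spanned a wide range, with *Gstm4* at 7.66 ± 1.53 CPM per kb and *Gstm3* near 0. Mu GSTs held 32.3% of all counts of the members in control males, peroxiredoxins 14.3%, dismutases with catalase 11.9% and alpha GSTs 10.8%.

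**Figure D3:**
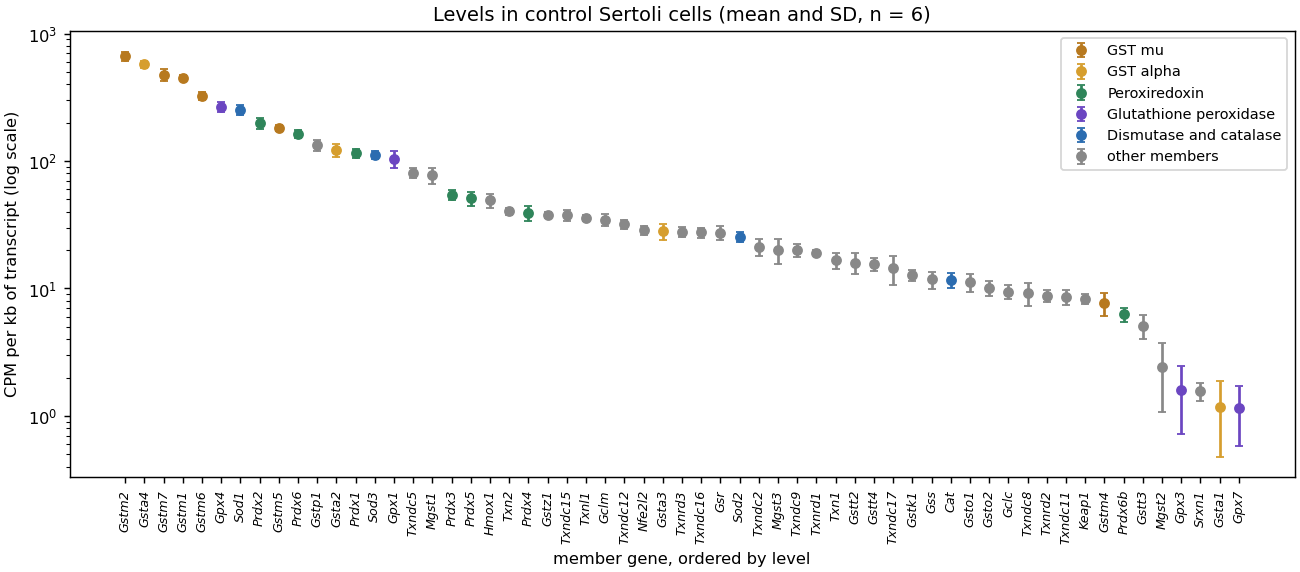
Control levels of the tested members in CPM per kb of transcript on a log axis, as mean and SD, ordered by level. *Gstm2*, *Gsta4*, *Gstm7* and *Gstm1* stand at the top.

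Together the members held 0.573% ± 0.0243 of the named counts in control (SD, n = 6) and 0.553% ± 0.0324 in MSUS males (SD, n = 7), a difference smaller than the SD of the MSUS males. Of the 59 tested members, 40 lay above the median level of all genes tested. Their median SD between control males was 0.169 on the log2 scale, against 0.198 for all genes.

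None of the 6 tested mu GSTs passed the test, and all 6 log2 fold changes were negative, from -0.09 to -0.02 with a median of -0.08. With *Malat1* as a covariate the values of *Gstm2* (0.045), *Gstm5* (0.068), *Gstm6* (0.071) and *Gstm7* (0.052) were positive, so no direction is given to them. For *Gstm1*, levels were 8.63 ± 0.06 log2 CPM in control (SD, n = 6) and 8.54 ± 0.13 in MSUS males (SD, n = 7), and 5 of 7 MSUS males lay below all control males while MSUS 1 lay above them. Its log2 fold change was -0.09 (95% confidence interval -0.22 to 0.03), and it passed an unadjusted p of 0.05 without MSUS 1. Among the alpha GSTs, *Gsta4*, which conjugates products of lipid peroxidation, had -0.02 (95% confidence interval -0.17 to 0.13) and *Gsta2* had -0.22 (95% confidence interval -0.44 to 0.0032). *Gsta2* passed an unadjusted p of 0.05 in 7 of 24 alternatives, namely with sample weights, with library size alone as the scaling, with the elongated spermatid score as a covariate, and without control 10, control 22, MSUS 1 or MSUS 13. *Gsta1* had the largest value of all members, 0.71, with an SE of 0.64 from 0 to 26 counts per library, and it rested on control 24 with 0 counts, without which it was 0.01. In addition, *Gpx7* with 0.29 (SE 0.44) and *Gstt2* with -0.24 (SE 0.15) were among the 5 largest values and were not called.

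GSTs are closely related in sequence, and a tool that assigns reads to transcripts has to divide those that fit several. Of all 100-base windows of the transcripts, 81.8% were shared with another gene for *Gsta1*, 42.2% for *Gstp2*, 38.4% for *Gstp1*, 24.8% for *Gsta2*, 18.1% for *Gstt3* and 13.8% for *Gstm3*, so values of these genes are uncertain. *Gpx4* shared 40.8%, with a pseudogene among its partners. The 5 called members shared 0%. Counts summed within families, which do not depend on how reads are divided inside a family, gave log2 fold changes of -0.05 (SE 0.07) for the alpha, -0.07 (SE 0.06) for the mu, -0.03 (SE 0.07) for the pi and -0.09 (SE 0.15) for the theta GSTs. The sums still depend on reads shared with genes outside them, such as *Gm10639* for *Gsta1* and *Gsta2*. *Gsta4* made up most of the alpha sum, with 493 CPM in control males against 98.7 for *Gsta2*.

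Glutathione peroxidases gave no call. *Gpx4*, which reduces lipid peroxides in membranes and has a structural role in sperm, had 7.98 ± 0.13 log2 CPM in control (SD, n = 6) and 7.88 ± 0.26 in MSUS males (SD, n = 7), with a log2 fold change of -0.11 (95% confidence interval -0.32 to 0.11). The cytosolic *Gpx1* had -0.01, and its direction depended on the model, with 0.18 once *Malat1* was a covariate.

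Of the dismutases, *Sod1* (cytosol), *Sod2* (mitochondria) and *Sod3* (extracellular) had log2 fold changes of -0.04, 0.01 and 0.09, the last with a 95% confidence interval of -0.06 to 0.24. *Sod3* passed an unadjusted p of 0.05 only with the elongated spermatid score as a covariate, where it had 0.13. *Cat*, which encodes catalase, had -0.16 (95% confidence interval -0.38 to 0.05) and passed an unadjusted p of 0.05 only with the share of mitochondrially encoded counts as a covariate, where it had -0.25. Its levels were 4.30 ± 0.19 log2 CPM in control (SD, n = 6) and 4.15 ± 0.12 in MSUS males (SD, n = 7).

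In the thioredoxin system, *Txn1* had a log2 fold change of -0.01 and *Txnrd1*, which encodes the cytosolic reductase, had 0.11 (95% confidence interval -0.05 to 0.28). For *Txnrd1* the control males lay close together, from 5.92 to 6.07 log2 CPM. The MSUS males ranged from 5.86 to 6.34, with 4 above and 2 below all control males. Of the 7 peroxiredoxins, 6 had negative values, with 1 called and a median of -0.08. *Prdx1* and *Prdx2* of the cytosol both had -0.05, and *Prdx6* had -0.08. Of the 10 thioredoxin-like genes, 6 had positive values with a median of 0.07, and *Txnl1* was the only call. Of 7 members with a textbook place in mitochondria, 2 were called lower (*Gstk1* and *Prdx3*) and 6 had negative values, with a median of -0.09, where 2.40% of all genes were called lower and 50.5% had negative values. The call of *Prdx3* was lost with the share of mitochondrially encoded counts or *Malat1* as a covariate, as given above. This grouping was made with earlier results of these data known.

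**Figure D4:**
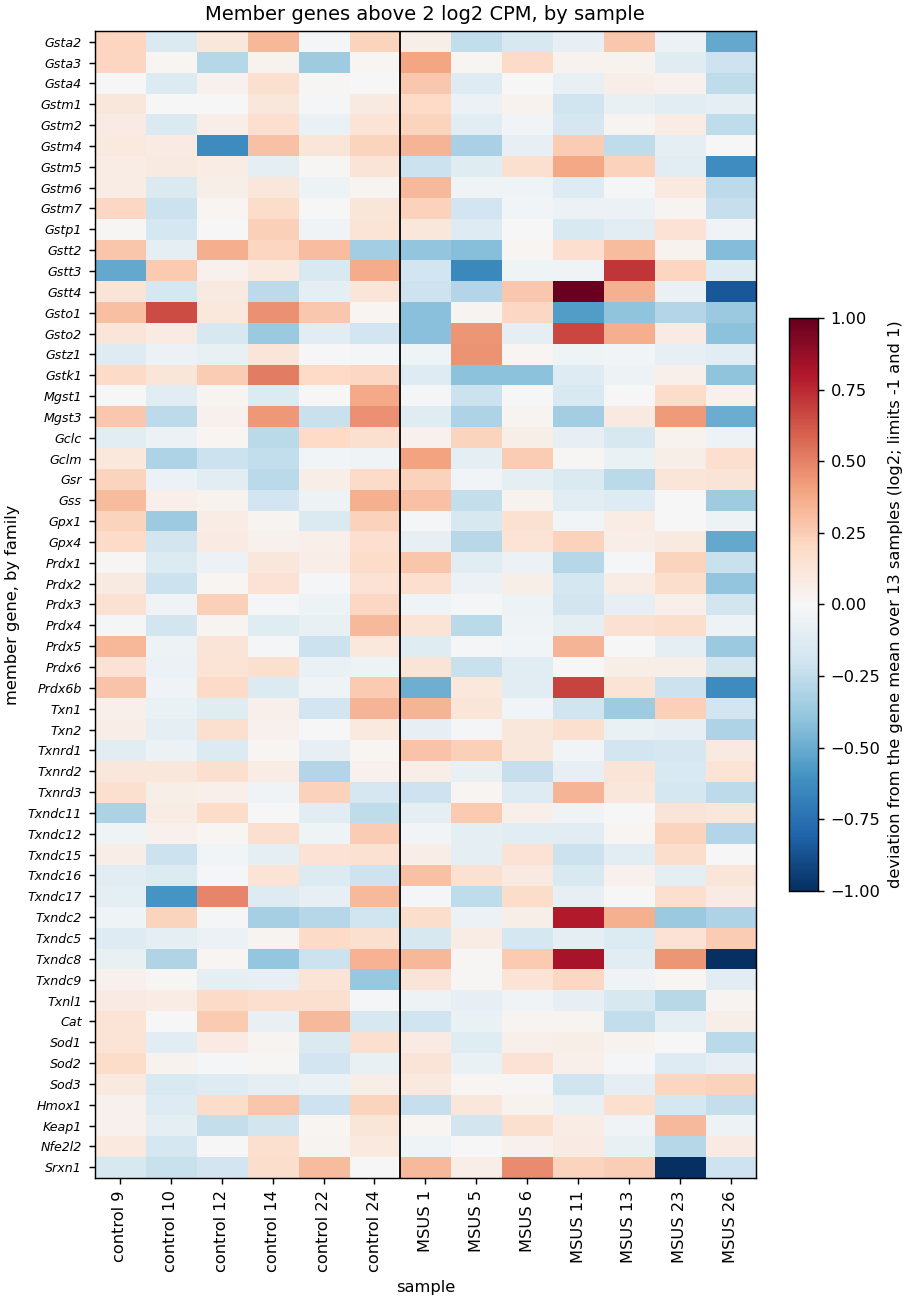
Deviation of each member from its mean over all 13 males, in log2 CPM, for the 55 tested members with a control level of at least 2 log2 CPM, with 1 column per male. Deviations run from -1.15 (*Txndc8* in MSUS 26) to 0.99 (*Gstt4* in MSUS 11). Among control males they run from -0.63 (*Gstm4* in control 12) to 0.65 (*Gsto1* in control 10). Single males stand out more than the groups do.

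Some members are known from germ cells rather than Sertoli cells. *Txndc2* and *Txndc8* encode thioredoxins of spermatids, and *Txndc5* encodes a protein disulfide isomerase of the endoplasmic reticulum. Relations of all 59 tested members with the elongated spermatid score, the mean log2 CPM of 6 spermatid genes such as *Prm1*, and with *Malat1* were computed after the data had been seen, 118 in all, by permutation tests with 100000 permutations. Over 13 males, *Txndc2* rose with the score by Pearson's r = 0.82 (permutation p = 0.00033, adjusted p = 0.0201) and Spearman's rho = 0.85 (permutation p = 0.00055, adjusted p = 0.0325). Without MSUS 26 and MSUS 11, the males farthest from the median score, r was 0.81, and it was 0.55 within control and 0.87 within MSUS males. *Txndc5* went the other way, with r = -0.85 (permutation p = 0.00034, adjusted p = 0.0201), rho = -0.81 (permutation p = 0.00146, adjusted p = 0.0574), r = -0.82 without these males, and -0.66 and -0.93 within control and MSUS males. For *Txndc8*, r was 0.60 (permutation p = 0.0307, adjusted p = 0.184), rho was 0.34 (permutation p = 0.255, adjusted p = 0.579), and r was -0.04 without MSUS 26 and MSUS 11, so the relation rested on them. The called member *Gstk1* had r = -0.05 with this score.

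**Figure D5:**
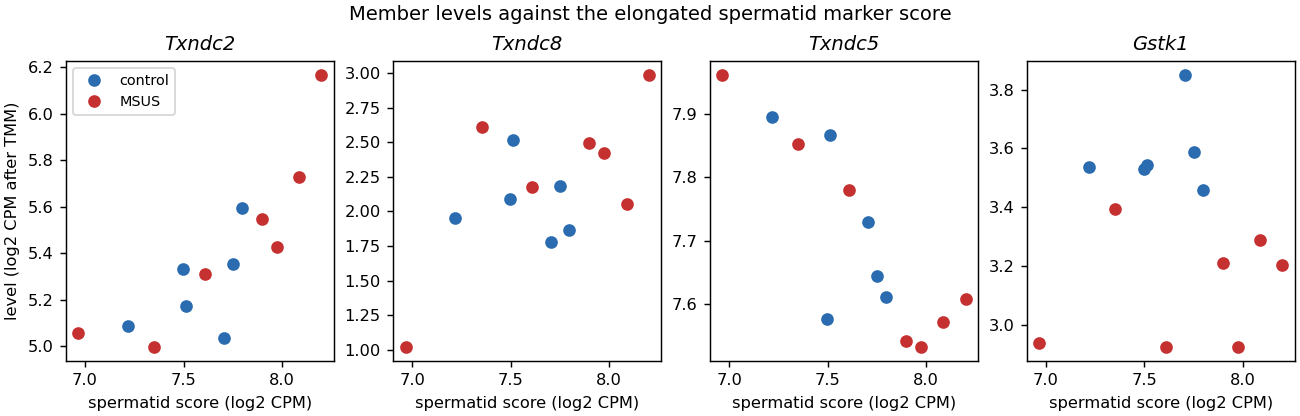
Levels of *Txndc2*, *Txndc8*, *Txndc5* and *Gstk1* in log2 CPM against the elongated spermatid score in log2 CPM, with 1 point per male for 6 control and 7 MSUS males. *Txndc2* rises and *Txndc5* falls along the score, and *Gstk1* shows no slope.

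With *Malat1*, 45 of the 59 members had a negative r, with a median of -0.31, and 1 passed the adjustment. The share of negative r over all genes tested was not computed, so this count cannot be called particular to the members. *Gsta2* had r = -0.79 (permutation p = 0.00125, adjusted p = 0.0492) and rho = -0.86 (permutation p = 0.00031, adjusted p = 0.0325). Its r was -0.80 without control 24 and MSUS 5, -0.66 within control and -0.81 within MSUS males. The part of *Malat1* in the differences between the groups was not tested beyond the fit with its level as a covariate. In that fit 3 members were lower and 3 higher at an unadjusted p under 0.05, *Gclm*, *Gpx1* and *Prdx4* being the higher ones, and the median of the members was 0.048. Over all genes tested in that fit, 1.38% were lower and 1.4% higher, with a median of -0.0014. The difference between members and all genes was not tested.

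Further genes around the same pathways gave few calls, all without passing the adjustment, and are to be read against the 2.40% lower, 3.02% higher and 50.5% negative among all genes tested. Among 25 tested genes of the glutathione cycle, 1 was lower and 2 were higher, with a median of -0.02. *Glrx5*, a mitochondrial glutaredoxin for iron-sulfur clusters, had -0.35 (SE 0.14), and the sulfur dioxygenase gene *Ethe1* had 0.66 (SE 0.24) and *Ggt7* 0.71 (SE 0.31). Of 31 partners and targets of NRF2, 2 were lower, the biliverdin reductase gene *Blvra* with -0.29 (SE 0.11) and the ferritin light chain gene *Ftl1* with -0.23 (SE 0.09), and 0 were higher. In the list of 22 selenoprotein and selenocysteine insertion genes, *Trnau1ap*, whose product helps selenocysteine incorporation, was the only call, with -0.39 (SE 0.12). Other defence and repair genes had 2 lower of 22 tested, and 18 values were negative, with a median of -0.09. *Nudt1*, which clears oxidized nucleotides, had -0.45 (SE 0.16) with MSUS males entirely below control males, as for 0.0555% of all genes, and the endoplasmic reticulum oxidase gene *Ero1l* had -0.29 (SE 0.12). Of 10 oxidant producing enzymes, 0 were called by limma at an unadjusted p under 0.05, and the median was -0.05.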

How the data were processed

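RNA of sorted Sertoli cells of 6 control and 7 MSUS males was sequenced. Reads of 100 bp from one end were trimmed by the authors (Trim Galore 0.6.5) and assigned to GENCODE vM23 transcripts with Salmon 1.1.0, versions as in the submitters' processing notes. They deposited estimated counts per gene without normalization. How transcripts were summed to genes is not given in the sources used here. Groups came from the sample labels. The table had 0 columns that matched no sample. Of 54281 features, 27170 had no gene name. Their share of a library was 20.7% to 26.7%, and the fit excluded them except under 1 alternative.

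Estimates were rounded to integers. Genes that passed filterByExpr were fitted with limma 3.58.1 voom after TMM (edgeR 4.0.16, R 4.3.3), with an unadjusted p under 0.05 as the call and Benjamini-Hochberg adjustment over all genes tested beside it. TMM and voom follow the study's methods, while the rounding and the filter were set here. Log2 CPM levels used a prior count of 2. Exact permutation tests compared the mean levels of single members and were added after the fit. Their p-values are unadjusted and are given for the called members only. They rest on the same males as the fit and are no separate evidence for these members. edgeR's quasi-likelihood test, DESeq2 1.42.0, sample weights, other normalizations and filters, 3 covariates and leaving out each sample were alternatives. The fit was tested on simulated data. No pair of the 78 sample pairs agreed within sampling noise (chi-square per gene from 6.11 to 49.5), so none was counted as a copy. P-values measure the spread between these mice, and neither litter nor cage was analysed here. Spread between mice and, for genes of low counts, counting error limit the precision.

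The members and lists were chosen with earlier results of these data known. Named members are those called, the 10 with the highest control CPM per kb, the 5 with the largest absolute log2 fold change and a list of 18 enzymes and regulators; of the other lists, each gene called is named. *Gsto2*, *Gsta2*, the *Txndc* genes and *Prdx4* were chosen afterwards, with their values known. Coordinates, transcript lengths and shared windows were read from GENCODE release vM21 (GRCm38), which precedes that of the authors, and promoters from RefSeq GRCm38.p6.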

Additional observations from a re-analysis of the deposited data

Results flagged for a closer look

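In 66 groups of levels, 3 values stood apart from the rest of their group by Dixon's criterion at the 95% level, where about 3.3 are given by chance. *Gsta1* had -2.52 log2 CPM in control 24, the value of a library with 0 counts, while the other control males had -0.07 to 0.85. Without this male its log2 fold change was 0.01. *Gstk1* had 3.85 log2 CPM in control 14 against 3.46 to 3.59 in the other control males, and its log2 fold change without control 14 was -0.41. *Nfe2l2* had 5.83 log2 CPM in MSUS 23 against 6.04 to 6.20 in the other MSUS males, and its log2 fold change without MSUS 23 was -0.02.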

How the results depend on the processing

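The 24 alternatives included 13 that left out a sample each. *Gstk1* (-0.50 to -0.35), *Gsto1* (-0.82 to -0.48) and *Txnl1* (-0.27 to -0.18) kept their direction and an unadjusted p under 0.05 in all of them. The number of lower members stayed between 3 and 6 when a sample was left out, and that of higher members between 0 and 2, with a median log2 fold change of -0.08 to -0.02. Over all genes tested in these fits, 1.57% to 3.5% were lower and 2.06% to 4.47% higher. The number of higher members was 2 with no filter on low counts (with *Gstp2* added), 2 with the elongated spermatid score, 0 with the share of mitochondrially encoded counts and 3 with *Malat1* as a covariate, and the last also turned the median of the members to 0.048 and *Gpx1* to 0.18. Of all genes tested, 2.42% were higher with no filter and 5.08% with the elongated spermatid score. The share was 1.55% with the mitochondrially encoded counts and 1.4% with *Malat1*, against 3.02% in the fit reported. The cause of these changes was not tested. With library size alone as the scaling, 59.1% of all calls were lower against 44.3% in the fit reported, and 5 members were lower and 1 higher. With this scaling 3.25% of all genes tested were lower and 2.25% higher. Of the 27 tested named members without a call, 19 changed sign in some alternative, so no direction is given to them. No setting gave a member an adjusted p under 0.05. The groups held different males and the labels give no pairs, so no paired analysis was made.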

Other observations

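Members too low for a test gave few counts. *Gstp2*, a pi GST next to *Gstp1* that shares 42.2% of its 100-base windows with other genes, had 0, 0, 0, 0, 3 and 7 counts in the control males and 0, 3, 7, 7, 11, 12 and 53 in the MSUS males, the highest being MSUS 1. *Nqo1* had 0 to 9 counts per library over both groups.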
